A study of Mus musculus with 13 samples.

Results

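The genes described here are the long noncoding RNAs Neat1 and Malat1 and the mRNAs of 4 nuclear RNA-binding proteins, Sfpq, Nono, Pspc1 and Matr3. They were chosen by symbol, through their Ensembl identifiers in the GENCODE annotation of the mouse genome GRCm38, and make up 6 of the 54532 genes in the deposited count table. All 6 were found and all 6 had enough reads to be measured in the 12 libraries used. The cells were Yumm1.7, a mouse cutaneous melanoma line grown in culture, and each condition had a single library, so that no difference between conditions has a replicate behind it. Total RNA came from cells given the solvent DMSO, from cells given ADAR1i-124, a compound that inhibits the RNA-editing enzyme ADAR1, at 10 µM for 12 h, and from cells given the DNA methylation inhibitor 5-AZA-CdR at 1 µM for 72 h. RNA from these conditions and from both drugs together was also precipitated with the antibody J2, raised against double-stranded RNA, or with Z22, an antibody to RNA in the left-handed Z form. The labels give no doses for the combination libraries. The study's text describes the combination as 5-AZA-CdR at 1 µM first and then ADAR1i-124 for a further 12 h. It gives 10 µM of ADAR1i-124 in a figure legend on editing and expression levels, and its methods for the precipitates give no dose. The study also used ADAR1i-124 at 1 µM with 5-AZA-CdR elsewhere. A single control precipitate was made with IgG, and its label names no treatment, so every ratio to IgG shares that library.

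Neat1 is the architectural RNA of paraspeckles, nuclear bodies that form around its long transcript. Sfpq, Nono and Pspc1 encode related proteins of the DBHS family, which bind RNA and DNA, and Sfpq and Nono are needed for paraspeckles to form on Neat1. Matr3 encodes matrin 3, an RNA-binding protein of the nuclear matrix, and Malat1 is an abundant RNA of nuclear speckles, the neighbouring bodies that hold splicing factors. Neat1 and Malat1 are transcribed from adjacent genes. Paraspeckles are known for retaining nuclear RNA, including RNA that has been edited by ADAR enzymes, which act on double-stranded RNA.

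Because J2 and Z22 bind paired RNA, each longest transcript was searched for stretches that could pair with another stretch of the same molecule. Neat1 was the single gene of the 6 with such a pair, by a search that required at least 40 aligned bases and an E value of at most 0.001. Its transcript Neat1-201 is 20771 bases long, has 1 exon and held 4 pairs of arms, some of which overlap. The longest pair is shown because it is the longest potential duplex found in any of the 6 RNAs. Both arms are printed 5′ to 3′ on the minus strand of chromosome 19 (GRCm38), with capitals for bases that face a Watson-Crick partner in the other arm.
Neat1 arm nearer the 5′ end, chr19:5834108-5834182: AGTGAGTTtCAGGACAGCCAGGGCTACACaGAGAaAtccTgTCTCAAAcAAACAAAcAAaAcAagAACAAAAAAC
Neat1 arm nearer the 3′ end, chr19:5825862-5825936: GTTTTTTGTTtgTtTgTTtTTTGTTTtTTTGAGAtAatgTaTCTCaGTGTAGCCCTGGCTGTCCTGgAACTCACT
The arms are 75 bases each, lie 8171 bases apart in the transcript, and form 62 Watson-Crick pairs, with a longest uninterrupted run of 20. Of the remaining positions, 4 could form G-U pairs. A pair of arms by the same search was present in 4.079% of the 13974 expressed genes searched, in 11.01% of the 1144 whose transcript was at least as long as that of Malat1, and in 29.79% of the 47 with at least 15000 bases, so Neat1 belongs to a length class in which such pairs were more frequent. Among genes with a pair, 65.1% had arms at least as long as those of Neat1. None was found in Malat1, Sfpq, Nono, Pspc1 or Matr3. The deposited counts are sums over whole genes and do not tell which part of Neat1 was precipitated.

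The 12 libraries held 8167960 to 34571822 reads assigned to genes. Some facts about them touch what follows. The total RNA library of the combination was left out because its reads follow the other strand: it held 3 reads on Neat1 and 47 on Malat1, but 32620 on Gm37376, a gene model on the strand opposite to Malat1, which had 0 to 3 reads in each of the other libraries. The Z22 library from DMSO cells stood apart, with 34.9% of its reads on the single gene Gm42418, against 10.6% to 18.9% in the other precipitates and at most 0.334% in total RNA. All differences are given as log2 differences in CPM (reads of a gene scaled to the assigned reads of its library), with 0.5 added to each value. They are centred on the median of every gene that averaged 1 CPM or more in the libraries compared. Among the differences from DMSO, that median was 0.81 to 1.06 in the 3 Z22 comparisons and within 0.11 of 0 in total RNA and J2. Between kinds of library, the Z22 DMSO library had medians of -1.18 against total RNA and -0.80 against J2. The medians of J2 against total RNA ran from -0.37 to -0.30. The part of Gm42418 in these shifts was not tested. Of 7 melanocyte lineage markers, Mitf alone reached 1 CPM in total RNA, with 22.2 in DMSO, 20.3 with ADAR1i-124 and 33.1 with 5-AZA-CdR, while Tyr, Tyrp1 and Mlana were at 0 in all 3 libraries. Summed markers of other cell types differed with treatment: 3 fibroblast markers came to 69.3, 358 and 539 CPM, 3 endothelial markers to 4.06, 18.4 and 83.1, 5 leukocyte markers to 8.41, 20.6 and 79.9, and 2 keratinocyte markers to at most 0.0588. A single gene carried most of each of the first 3 sums. These were Col1a2 with 60.2, 329 and 344 CPM, Cdh5 with 3.70, 17.8 and 81.1, and Cd68 with 8.29, 19.5 and 75.4. The fibroblast marker Pdgfra was also higher with both drugs, at 5.23, 25.4 and 150 CPM, while Col1a1 was at 3.88, 3.58 and 44.0. Ptprc was at most 1.22, Lyz2 at most 2.43, Pecam1 at most 1.59 and Cd3e was at 0. Their part in the differences below was not tested.

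In total RNA, Neat1 had 1007 CPM in DMSO, 1827 CPM with ADAR1i-124 and 2518 CPM under 5-AZA-CdR. Both drug libraries were above DMSO. Against the median of all genes the difference was 0.95 with ADAR1i-124 (95% exact counting interval 0.92 to 0.98), just under the 2-fold line, and 1.26 with 5-AZA-CdR (1.24 to 1.29). These intervals cover counting error only, not the spread between cultures, and PCR copies are not independent molecules. No member passed 2-fold with ADAR1i-124, where 16.2% of 13693 genes did in either direction, and 2 of 6 passed with 5-AZA-CdR, where 25.6% of 14391 genes did. Those 2 were Neat1 and Malat1, both higher.

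In the J2 precipitates DMSO was the highest and not the lowest. Neat1 had 2410 CPM in the J2 library of DMSO cells, 521 with ADAR1i-124, 652 under 5-AZA-CdR and 935 in the combination. Each drug library was below DMSO by more than 2-fold. The centred differences from DMSO were -2.21 (-2.25 to -2.17), -1.94 (-1.98 to -1.91) and -1.47 (-1.50 to -1.44) in the same order of treatments. Only 2.04%, 1.16% and 1.90% of all genes tested lay lower in these 3 comparisons. All 3 share the J2 DMSO library, so they are not independent of each other.

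In the Z22 precipitates the level of Neat1 was 476 CPM in DMSO, 780 with ADAR1i-124, 2169 under 5-AZA-CdR and 2408 in the combination. The 2 libraries from cells that had received 5-AZA-CdR stood well above the other 2. Centred differences from DMSO were -0.10 (-0.15 to -0.04) with ADAR1i-124, 1.13 (1.08 to 1.18) under 5-AZA-CdR and 1.52 (1.47 to 1.57) in the combination. Before centring they were 0.71, 2.19 and 2.34, so that the sign for ADAR1i-124 depends on the centring. The combination exceeded ADAR1i-124 alone in Z22 by 1.62 (1.59 to 1.66) and 5-AZA-CdR alone by 0.33 (0.30 to 0.36), 2 comparisons that do not use the Z22 DMSO library. In J2 the matching values were 0.74 (0.70 to 0.78) and 0.47 (0.43 to 0.51).

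**Figure D1:**
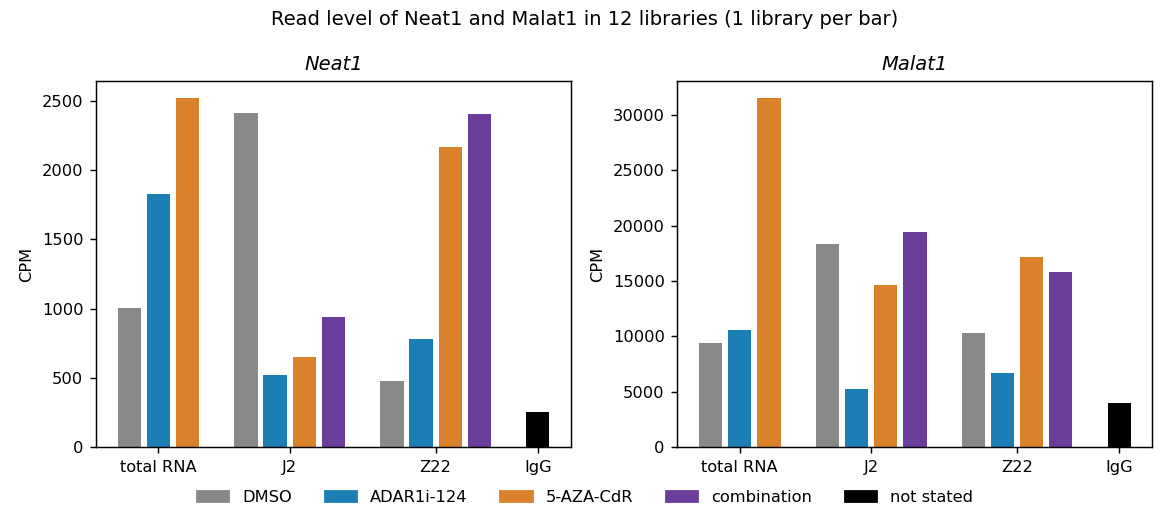
Level of Neat1 (left) and Malat1 (right) in CPM, on axes that start at 0, with 1 bar for each of the 12 libraries, grouped by total RNA, J2, Z22 and IgG and coloured by treatment. The tallest Neat1 bars are total RNA with 5-AZA-CdR at 2518 CPM, J2 from DMSO cells at 2410 and Z22 with the combination at 2408, and the shortest is IgG at 255.

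Malat1 was the most abundant member in every library. In total RNA it had 9424 CPM in DMSO, 10581 with ADAR1i-124 and 31493 under 5-AZA-CdR, so that 3.15% of all assigned reads of the 5-AZA-CdR library came from this gene. The ADAR1i-124 library was close to DMSO, with a centred difference of 0.26 (0.25 to 0.27), whereas that with 5-AZA-CdR was 1.68 (1.67 to 1.69). In CPM per kilobase of exon, the 3 total RNA levels of Malat1 were 1350, 1515 and 4510, and those of Neat1 were 48.5, 87.9 and 121. On that length scale the order of the members in DMSO was Malat1, then Nono at 105.5, Sfpq at 71.3, Neat1, Matr3 at 32.0 and Pspc1 at 12.7, and with no replicate it cannot be said which neighbours in this order differ.

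The J2 libraries held 18345 CPM of Malat1 in DMSO, 5278 with ADAR1i-124, 14604 under 5-AZA-CdR and 19464 in the combination. The ADAR1i-124 library alone stood apart, with a centred difference from DMSO of -1.80 (-1.81 to -1.79), while the other 2 drug libraries differed from DMSO by -0.39 and -0.02. In Z22 the levels were 10298, 6715, 17207 and 15787 CPM in the same order. Here too the ADAR1i-124 library was the lowest, with a centred difference from DMSO of -1.43 (-1.44 to -1.41), or -0.62 before centring. With 5-AZA-CdR and the combination the centred differences were -0.32 and -0.20, or 0.74 and 0.62 before centring. Their sign thus depends on the centring. The combination exceeded ADAR1i-124 alone by 1.78 (1.76 to 1.79) in J2 and by 1.23 (1.22 to 1.24) in Z22, and 5-AZA-CdR alone by 0.37 and 0.06. Over all genes, the ADAR1i-124 precipitates also lay nearest to IgG: 739 genes were at least 2-fold above IgG and 570 at least 2-fold below it in J2 with ADAR1i-124, against 1798 and 1182 in J2 from DMSO cells. The part of that difference in the values of Neat1 and Malat1 was not tested.

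Neat1 and Malat1 lie on the minus strand of chromosome 19, at chr19:5824708-5845478 and chr19:5795690-5802672. Within 100 kb, 11 other genes averaged 1 CPM or more over the 12 libraries used. In total RNA with 5-AZA-CdR their median centred difference from DMSO was 0.29. Ltbp3, which encodes a protein that binds latent TGF-β, passed 2-fold at 1.89, with 768 reads in DMSO and 6084 with 5-AZA-CdR. The nearest of the 11 on the Neat1 side, Frmd8, was at 0.76. No gene of the 11 passed 2-fold in the lower direction with 5-AZA-CdR, and Slc25a45 was the lowest at -0.75. With ADAR1i-124, Map3k11 at 1.36 and Sssca1 at 1.37 were higher by more than 2-fold and Cdc42ep2 was lower at -1.45. So 3 of the 11 passed 2-fold with ADAR1i-124 and 1 with 5-AZA-CdR, beside 16.2% and 25.6% of all genes. Those shares were taken over genes averaging 1 CPM or more in the total RNA libraries compared. In the 300-base promoter of Malat1 (RefSeq, GRCm38.p6, chr19:5802623-5802922), the dinucleotide CG, read on either strand alike, occurred 10 times, and 43.5% of 32851 promoters held at least as many. Those of Sfpq, Nono and Pspc1 held 13, 23 and 23. No methylation was measured in these samples.

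In total RNA the mRNAs of the 3 DBHS proteins and of matrin 3 varied less than Neat1 and Malat1 did. Sfpq had 338 CPM in DMSO, 350 with ADAR1i-124 and 217 under 5-AZA-CdR in total RNA. Nono had 462, 515 and 331 CPM, Pspc1 had 72.7, 48.1 and 46.5, and Matr3 had 325, 260 and 228 in the same order. All 4 were lowest with 5-AZA-CdR, the library in which Neat1 and Malat1 were highest. Their centred differences from DMSO there were -0.70 for Sfpq, -0.54 for Nono, -0.70 for Pspc1 and -0.57 for Matr3, and none reached the 2-fold line. With ADAR1i-124 the differences were 0.14, 0.25, -0.50 and -0.23.

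In the J2 precipitates none of the 4 mRNAs passed 2-fold under any treatment. Sfpq came nearest, with 188 CPM in DMSO, 367 with ADAR1i-124, 203 under 5-AZA-CdR and 215 in the combination. Its ADAR1i-124 library stood above the other 3, with a centred difference from DMSO of 0.96 (0.89 to 1.04). Nono had 340, 463, 276 and 270 CPM, Pspc1 had 35.4, 47.6, 45.5 and 48.3, and Matr3 had 174, 229, 172 and 188. Each of these 3 was at its highest or within 1 CPM of it in the ADAR1i-124 library, the one in which Neat1 and Malat1 were at their lowest. Of the 6 members, 2 passed 2-fold in J2 with ADAR1i-124, 1 under 5-AZA-CdR and 1 in the combination, against 18.2%, 14.4% and 11.9% of all genes.

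In Z22, Nono differed most of the protein-coding members. It had 734 CPM in DMSO, 434 with ADAR1i-124, 367 under 5-AZA-CdR and 253 in the combination, and the DMSO value was the highest of the 12 libraries. The centred differences from DMSO were -1.57, -2.06 and -2.36. Sfpq had 312, 364, 276 and 219 CPM, and its centred differences were -0.59, -1.24 and -1.33, or 0.22, -0.18 and -0.51 before centring. Pspc1 was at 42.5, 42.1, 42.1 and 35.3 CPM, so nearly level in CPM, and its centred differences of -0.83, -1.07 and -1.08 came from the shift of the median of all genes. Matr3 had 97.6, 178, 169 and 138 CPM, with centred differences of 0.06, -0.27 and -0.32, or 0.87, 0.79 and 0.50 before centring. Past 2-fold were 2 of 6 members with ADAR1i-124, 4 under 5-AZA-CdR and 4 in the combination, against 35.1%, 37.7% and 35.8% of all genes. Without the centring these counts were 0, 1 and 2. Among the 3 Z22 libraries from drug-treated cells, which leave the DMSO library aside, the difference of the combination from ADAR1i-124 alone was -0.78 for Nono, -0.73 for Sfpq, -0.25 for Pspc1 and -0.37 for Matr3, and that from 5-AZA-CdR alone was -0.36, -0.15, -0.07 and -0.11. In J2 the differences from ADAR1i-124 alone were -0.88 for Nono, -0.88 for Sfpq, -0.09 for Pspc1 and -0.39 for Matr3, and all 4 lay between -0.08 and 0.08 against 5-AZA-CdR alone.

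**Figure D2:**
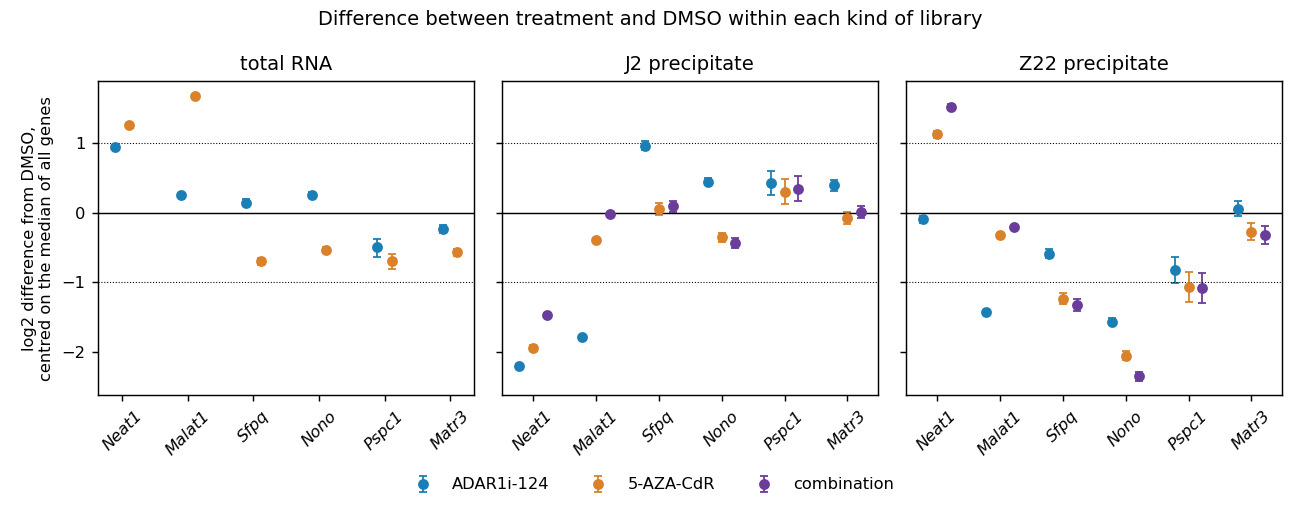
Centred log2 difference in CPM between each treatment and DMSO for the 6 members in total RNA, J2 and Z22, with 1 point per comparison, 95% exact counting intervals as bars (many smaller than the points) and dotted lines at 2-fold. Neat1 lies above 0 in total RNA (0.95 and 1.26), below it in J2 (-2.21 to -1.47) and between -0.10 and 1.52 in Z22, while the 4 protein-coding members lie within the dotted lines in total RNA and J2.

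Against IgG, Neat1 and Malat1 were the 2 members enriched by both antibodies. IgG held 255 CPM of Neat1 and 3977 CPM of Malat1, below every J2 and Z22 library for both genes. The IgG library was itself low in both, with centred differences from the total RNA of DMSO cells of -1.58 for Neat1, below which lay 1.23% of all genes, and -0.84 for Malat1. The centred log2 ratio of J2 to IgG for Neat1 was 3.23 in DMSO, 1.03 with ADAR1i-124, 1.29 under 5-AZA-CdR and 1.74 in the combination, with a mean of 1.82 ± 0.98 (SD, n = 4 treatments). For Z22 the Neat1 ratios were 1.64, 1.64, 2.91 and 3.21, with a mean of 2.35 ± 0.83. DMSO thus had the highest Neat1 ratio in J2 and, after centring, shared the lowest with ADAR1i-124 in Z22. Before centring the Z22 ratios of Neat1 were 0.90 in DMSO and 1.61 with ADAR1i-124, so the tie depends on the centring. Malat1 had a mean ratio of 1.64 ± 0.84 in J2 and 1.70 ± 0.62 in Z22, and its lowest ratio in both was that with ADAR1i-124, at 0.41 and 0.78. On the mean over the 4 treatments, 275 of 13822 genes lay above Neat1 in J2 and 122 in Z22, and 408 and 589 lay above Malat1.

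The protein-coding members were not enriched over IgG on average. Their mean ratios in J2 ran from -0.57 ± 0.41 for Nono to -0.14 ± 0.18 for Pspc1, and in Z22 from -0.53 ± 0.18 for Matr3 to 0.23 ± 0.59 for Sfpq. Single libraries departed from these means. The largest ratio was that of Nono in Z22 from DMSO cells, at 1.38, against -0.10, -0.54 and -0.93 in the 3 drug libraries. Before centring these Nono ratios were 0.64, -0.12, -0.36 and -0.90. Of the 6 members, 2 passed 2-fold on the mean in each antibody, beside 14.8% of 13822 genes in J2 and 24.0% in Z22. The SD here is over treatments that share 1 IgG library and is not a replicate error.

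**Figure D3:**
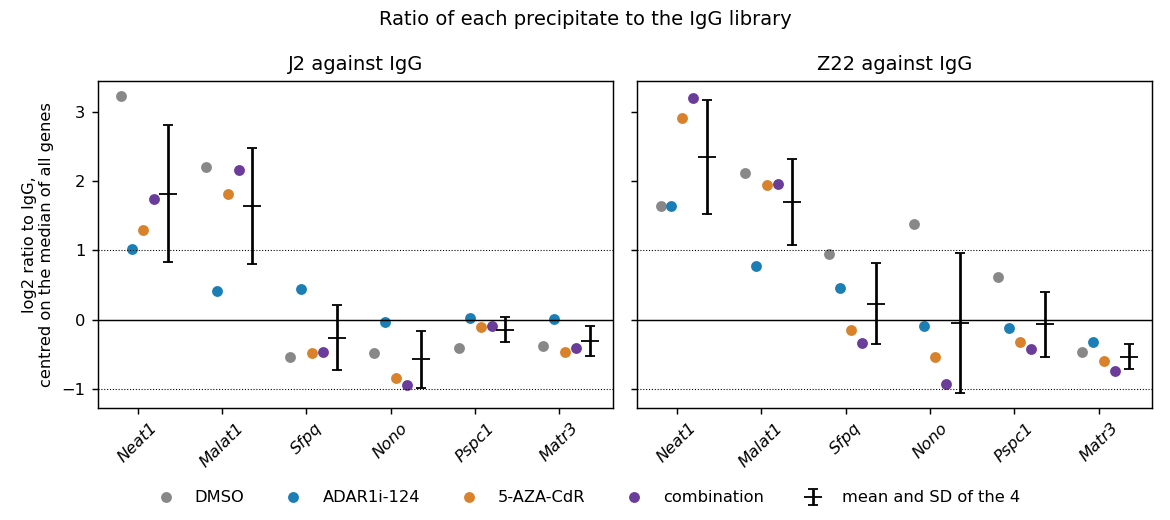
Centred log2 ratio of each J2 (left) and Z22 (right) library to the IgG library for the 6 members, with 1 coloured point per treatment, the mean and SD of the 4 in black and dotted lines at 2-fold. Neat1 and Malat1 have means from 1.64 to 2.35, and the 4 protein-coding members have means from -0.57 to 0.23.

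The kinds of library were compared with edgeR's quasi-likelihood test, with the treatment as a block, so that treatments took the place of replicates. Z22 against J2 used 4 treatments. No member was called in it, and 0% of 14366 genes were at a Benjamini-Hochberg adjusted p under 0.05, although 3104 were at an unadjusted p under 0.05 and DESeq2 called 609 higher and 280 lower. Neat1 had a log2 fold change of 0.59 ± 0.50 (SE), with an adjusted p of 0.504 by edgeR. By treatment its centred Z22-to-J2 difference was -1.54 in DMSO and 0.59, 1.60 and 1.47 with ADAR1i-124, 5-AZA-CdR and the combination, so DMSO was the 1 treatment with less Neat1 in Z22 than in J2. Without the DMSO libraries the fold change was 1.21, with an adjusted p of 0.0280 by edgeR, and 610 genes were called higher and 240 lower. Without ADAR1i-124, 5-AZA-CdR or the combination it was 0.60, 0.22 and 0.25, with adjusted p of 0.635, 0.847 and 0.842 by edgeR. Malat1, in contrast, differed by 0.06 ± 0.34 (adjusted p 0.929, edgeR), and its differences by treatment lay between -0.20 and 0.35. Sfpq was at 0.49 ± 0.29 (adjusted p 0.345, edgeR), Nono at 0.51 ± 0.35 (adjusted p 0.412, edgeR), Pspc1 at 0.07 ± 0.27 and Matr3 at -0.22 ± 0.18 (adjusted p 0.487, edgeR). Without the DMSO libraries Sfpq was at 0.14 and Nono at 0.056.

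The comparisons with total RNA used the 3 treatments that have a total library. In J2 against total RNA, 0.0334% of 14988 genes were called by edgeR, and no member was, by either the adjusted p or an unadjusted p under 0.05. DESeq2 called 292 genes higher and 104 lower, with no member among them. Neat1 was higher in J2 than in total RNA in DMSO, at 1.62, and lower with ADAR1i-124 at -1.51 and with 5-AZA-CdR at -1.58. Across the 3 the log2 fold change was -0.56 ± 0.71 (adjusted p 0.804, edgeR), and without the DMSO libraries it was -1.53, with an adjusted p of 0.0435 by edgeR, in a fit that called 215 of 15548 genes higher and 147 lower. Malat1 had the same order of signs, at 1.32, -0.70 and -0.74, and a fold change of -0.04 ± 0.58 (adjusted p 0.984, edgeR). The protein-coding members lay between -0.13 ± 0.24 for Matr3 (adjusted p 0.870, edgeR) and 0.08 ± 0.22 for Nono (adjusted p 0.917, edgeR), with Sfpq at 0.07 ± 0.26 and Pspc1 at 0.01 ± 0.29. In Z22 against total RNA, 0.0737% of 14931 genes were called and again no member by the adjusted or the unadjusted p, and DESeq2 called 220 genes higher and 65 lower. The per-treatment values for Neat1 in Z22 were 0.10 in DMSO, -0.93 with ADAR1i-124 and -0.01 with 5-AZA-CdR. Those for Malat1 were 1.31, -0.36 and -0.67. Before centring they were -1.08, -1.23 and -0.22 for Neat1 and 0.13, -0.66 and -0.87 for Malat1. The sign for Neat1 in DMSO thus depends on the centring. Over the 3 treatments the fold changes were -0.26 ± 0.40 for Neat1, 0.09 ± 0.54 for Malat1, 0.21 ± 0.35 for Pspc1 and -0.32 ± 0.34 for Matr3. Nono and Sfpq had the highest values of the 6 in Z22 against total RNA, at 0.76 ± 0.47 (adjusted p 0.532, edgeR) and 0.68 ± 0.36 (adjusted p 0.488, edgeR). Leaving out each treatment moved Nono between 0.19 (without DMSO) and 1.14 (without ADAR1i-124) and Sfpq between 0.44 and 0.85, with neither called. In the DMSO libraries alone the centred differences were 1.85 for Nono and 1.07 for Sfpq, or 0.67 and -0.11 before centring, and with the single drugs they were between 0.05 and 0.55. The precipitated RNA had been through an RNase I digestion, an enzyme that removes single-stranded RNA, and total RNA had not, so these comparisons hold the digestion as well as the antibody. The IgG precipitate, for which no other protocol is described, was at -1.58 for Neat1, -0.84 for Malat1 and 0.44 for Nono against the total RNA of DMSO cells.

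**Figure D4:**
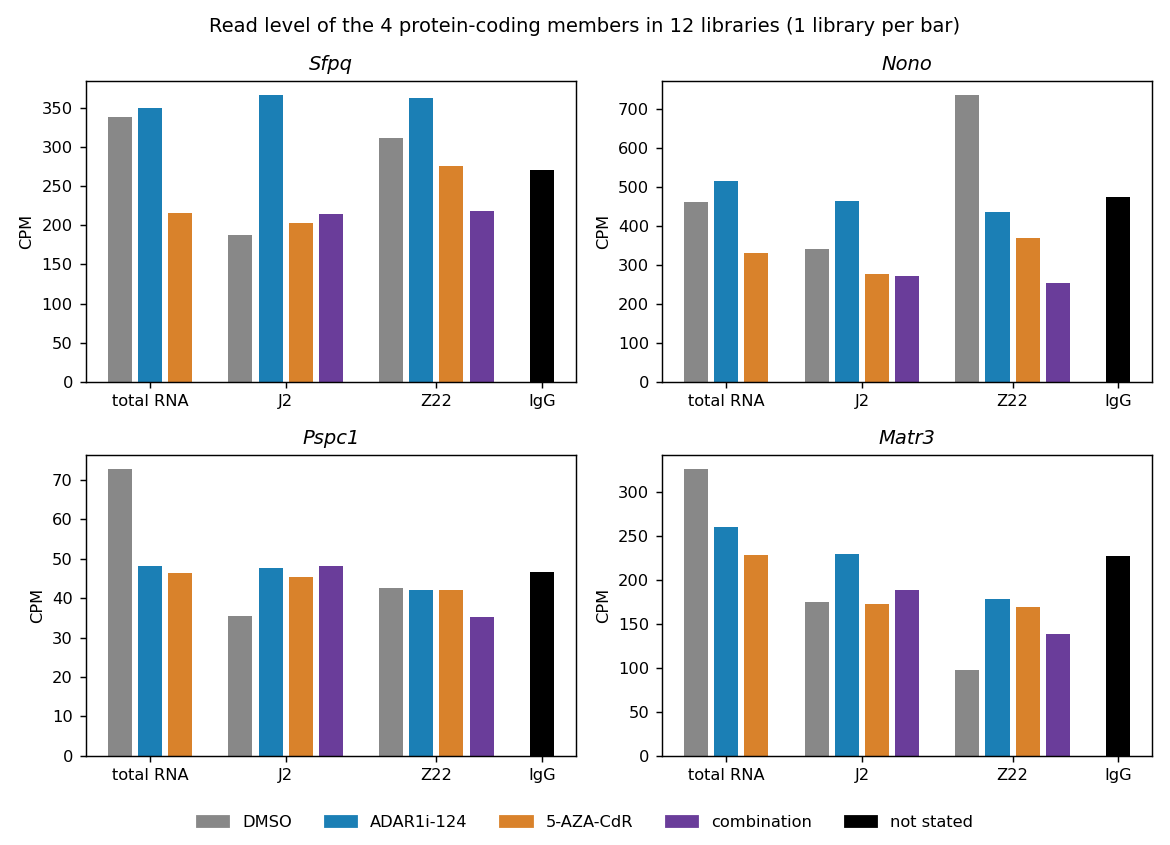
Level of Sfpq, Nono, Pspc1 and Matr3 in CPM, on axes that start at 0, with 1 bar for each of the 12 libraries, grouped and coloured by kind of library and treatment. The bar that stands out most is Nono in Z22 from DMSO cells at 734 CPM, against 253 to 515 in the other 11 libraries.

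Other proteins of paraspeckles, a list of 25 genes from general knowledge that were all measured, were mostly near the median of all genes in total RNA, which is 0 on this scale by construction. None passed 2-fold with ADAR1i-124, beside 16.2% of all genes, and the list's median was -0.06. With 5-AZA-CdR, 3 of 25 were lower and none higher, beside 25.6% of all genes in either direction, with a median of -0.35. They were Nudt21, a subunit of cleavage factor Im, at -1.20, the splicing regulator Hnrnpa1 at -1.39 and the cold-inducible RNA-binding protein gene Rbm3 at -1.21. In J2 with ADAR1i-124, 2 were higher, Rbm3 at 1.33 and Hnrnpa1 at 1.003, and 2 were lower, Akap8l at -1.45 and Taf15 at -1.24, beside 18.2% of all genes. With 5-AZA-CdR the same 2 genes, Taf15 and Akap8l, were the ones lower in J2, and with the combination none of the 25 passed 2-fold, beside 14.4% and 11.9% of all genes.

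In the Z22 comparisons 8, 6 and 6 of the 25 were higher and 6, 7 and 8 lower with ADAR1i-124, 5-AZA-CdR and the combination, beside 35.1%, 37.7% and 35.8% of all genes in either direction, all against the Z22 DMSO library that stood apart. Higher in all 3 were Nudt21, Rbm12, Rbm7, Rbm4b, Rbmx and Srsf10, and with ADAR1i-124 also Rbm3 and Tardbp. Lower in all 3 were Smarca4, Ewsr1, Taf15 and Akap8l. Dazap1, Hnrnpa1 and Hnrnpr were also lower with 5-AZA-CdR and the combination, Hnrnph3 with ADAR1i-124 and the combination, and Cirbp with ADAR1i-124. Taf15, which encodes an RNA-binding protein of the FET family, was the lowest of the list each time, from -3.07 to -2.85. It had 5725 reads in the Z22 DMSO library, more than in any of the 3 Z22 drug libraries, which had 1325 to 2330. On the mean ratio to IgG, Rbm3 was the 1 gene of the 25 past 2-fold in J2, and was lower, beside 14.8% of all genes. In Z22, Smarca4, Taf15 and Akap8l were higher and Nudt21, Rbm3, Rbm7 and Srsf10 lower, with a median of the list of -0.10, while 2092 of 13822 genes were higher and 1227 lower.

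Of 9 other nuclear long noncoding RNAs listed, 7 were measured. In total RNA none was 2-fold higher with either drug. Pvt1, a noncoding RNA next to Myc, was lower with both, at -1.89 with ADAR1i-124 and -1.48 with 5-AZA-CdR, and the imprinted Airn was lower with ADAR1i-124 at -1.13, so 2 and 1 of 7 beside 16.2% and 25.6% of all genes. In J2, 2, 3 and 2 of the 7 were lower by 2-fold with ADAR1i-124, 5-AZA-CdR and the combination and none was higher, beside 18.2%, 14.4% and 11.9% of all genes in either direction. Firre, an X-linked RNA of chromatin, was among them in all 3, at -1.77, -1.30 and -1.15. Airn joined it with ADAR1i-124 at -1.25 and with 5-AZA-CdR, and Pvt1 with 5-AZA-CdR at -1.15 and with the combination at -1.09. These comparisons share the J2 DMSO library with those of Neat1.

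In Z22, 3, 4 and 2 of the 7 were higher by 2-fold and 1, 0 and 1 lower, beside 35.1%, 37.7% and 35.8% of all genes. The medians of the 7 were 0.80, 1.12 and 0.73. Tug1 was higher in all 3, at 1.48, 1.38 and 1.83, and so was Dleu2, at 1.87, 1.86 and 1.57. Pvt1 was higher with ADAR1i-124 at 1.26 and with 5-AZA-CdR at 1.53, and Kcnq1ot1 with 5-AZA-CdR at 1.12. Firre was lower with ADAR1i-124 at -1.24 and Airn with the combination at -1.30. Pvt1 with 5-AZA-CdR was thus the 1 of these RNAs that, like Neat1 with the same drug, lay past 2-fold below DMSO in J2 and past 2-fold above it in Z22, although in total RNA it was lower where Neat1 was higher. On the mean ratio to IgG, Kcnq1ot1, Firre and Airn passed 2-fold upward in both antibodies, 3 of 7 in each. Of all genes, 14.8% in J2 and 24.0% in Z22 passed it in either direction. The median of the 7 was 0.61 in J2 and 0.39 in Z22. The IgG library was itself low in these RNAs, with a median of -0.88 against the total RNA of DMSO cells. Against total RNA their medians in J2 were 0.02 in DMSO, 0.24 with ADAR1i-124 and 0.0008 with 5-AZA-CdR. In Z22 these medians were -0.83, -0.07 and 0.12.

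Of 10 nuclear speckle proteins, Rnps1, a splicing activator, was 2-fold higher in total RNA with ADAR1i-124 at 1.05, and the splicing factors Srsf1 and Srsf2 were lower with 5-AZA-CdR at -1.15 and -1.13, so 1 and 2 of 10 beside 16.2% and 25.6% of all genes. In J2 with ADAR1i-124, Srsf1 and Srsf2 were higher, at 1.41 and 1.50, and none of the 10 passed 2-fold in the other J2 comparisons, beside 18.2%, 14.4% and 11.9% of all genes. In Z22, Srsf1 was the highest of the 10 in all 3 comparisons, at 1.95, 1.19 and 1.04, and Srsf2 was also higher with ADAR1i-124 at 1.15. Srrm2, a scaffold protein of speckles, was the lowest, at -0.96, -0.98 and -1.17, and Srrm1 was also lower with the combination at -1.17. The Z22 counts past 2-fold were thus 2 of 10 and 1 of 10 with the single drugs and 3 of 10 with the combination, beside 35.1%, 37.7% and 35.8% of all genes. On the mean ratio to IgG, Srsf2 was lower in J2, and in Z22 Srrm2 and Srrm1 were higher and Srsf1 and Srsf2 lower, so 1 and 4 of 10 beside 14.8% and 24.0% of all genes. Of 9 nuclear processing and decay factors, among them the m6A writer Mettl3 and the m6A reader Ythdc1, none passed 2-fold against DMSO in total RNA or J2 or on the mean ratio to IgG, and 1 of 9 did against DMSO in Z22, Rbm10 with the combination at -1.10.

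Over the 12 libraries, the genes whose log2 CPM followed that of Neat1 most closely among 8889 that averaged 10 CPM or more were Ambra1 (Pearson's r = 0.940), Ikbkb (0.928) and Snx33 (0.924), and Malat1 came at place 171 with 0.780. Those nearest to Malat1 were Anks3 (0.983), Iffo1 (0.947) and H2-Q5 (0.942). The 12 points share antibodies, treatments and the effect of Gm42418 on the totals, and the values are given as a description.

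Some members share reads or sequence with other gene models. Sfpq overlaps Gm12940 and Matr3 overlaps Gm36989, both on the same strand, so that reads in the shared parts could be split or dropped. The small RNA genes annotated inside Neat1 and Malat1 had 0 reads in every library. The short and long forms of Neat1 share their 5′ part and cannot be told apart in the gene counts.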

How the data were processed

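Per the study's methods, RNA was extracted with TRIzol, precipitates were digested with RNase I and DNase before the antibody was added, and libraries were made after ribosomal RNA depletion and sequenced as pairs. The authors mapped reads with STAR in snakePipes to GRCm38/mm10 and deposited raw counts per gene, 1 column per library. The counting tool and strand setting are not given in the sources used here. Of the 54532 genes, 54409 matched GENCODE M21 by identifier without version. The members and gene lists were chosen with earlier results of these data known. No column was left unmapped, and 1 of 13 libraries was left out for its strand.

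Counts were divided by library totals, and differences of log2(CPM + 0.5) were centred on the median over genes averaging 1 CPM or more. A difference of at least 2-fold was counted as past the line. Exact Clopper-Pearson intervals at 95% cover counting error only. Kinds of library were compared with edgeR 4.0.16 (TMM factors, filterByExpr, quasi-likelihood test, treatment as a block, Benjamini-Hochberg over all genes, threshold 0.05) in R 4.3.3, with DESeq2 1.42.0 as an alternative. Treatments stood in for replicates, so these p-values measure the spread between treatments. The calculation of differences and the edgeR test were each tried on simulated data, and DESeq2 was not. Inverted repeats were searched with blastn 2.17.0 in the longest transcript of each expressed gene, leaving out 7 transcripts over 30000 bases. All members were named in the comparisons with DMSO and IgG and in the 3 tests, and list genes were named where they passed 2-fold against DMSO or in the mean ratio to IgG, and the highest or lowest of a list in part. Alternatives were other scalings, no centring, other pseudocounts, no minimum CPM, a 4-fold line, other edgeR settings and leaving out each treatment.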

Additional observations from a re-analysis of the deposited data

Results flagged for a closer look

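Neat1 differed from DMSO in opposite directions in different kinds of library under the same treatment, with a centred log2 difference of at least 0.5 in both and at least 1 in one of them. With ADAR1i-124 it was at 0.95 in total RNA and -2.21 in J2. With 5-AZA-CdR it was at 1.26 in total RNA, -1.94 in J2 and 1.13 in Z22. With the combination it was at -1.47 in J2 and 1.52 in Z22. Each value compares 1 library with 1 library, so the difference between the kinds of library was not tested. The values in J2 share 1 DMSO library, and so do those in Z22.

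The total RNA library of the combination, which enters no comparison, held 32620 reads on Gm37376, a gene model on the strand opposite to Malat1, against 1 in the total RNA of DMSO cells.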

How the results depend on the processing

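A 4-fold line left 0 members past it in total RNA with 5-AZA-CdR, 1 in J2 with ADAR1i-124, 0 in J2 with 5-AZA-CdR and 0 with the combination, 0, 1 and 1 in Z22 with ADAR1i-124, 5-AZA-CdR and the combination, and 0 and 1 in the ratios of J2 and Z22 to IgG, where 3.2% to 7.65% of all genes passed it against DMSO and 1.5% and 2.57% against IgG. Without centring, the Z22 counts were 0, 1 and 2 for the 3 treatments. Without a minimum mean CPM they were 1 with ADAR1i-124 and 2 with 5-AZA-CdR, because the median was then taken over more genes. No member past 2-fold against DMSO, or on the mean ratio to IgG, changed sign under any scaling, pseudocount or filter, also under TMM or DESeq2 factors without centring, which were chosen after seeing the data.

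In the tests, library totals in place of TMM factors put Malat1 at -0.14 and Pspc1 at -0.12 in Z22 against J2, Sfpq at -0.29, Nono at -0.29 and Pspc1 at -0.36 in J2 against total RNA, and Malat1 at -0.47 and Pspc1 at -0.37 in Z22 against total RNA, each the other sign from the reported value. Pspc1 in J2 against total RNA was also at -0.0062 with DESeq2, -0.064 without a filter and -0.011 without the treatment block, and Malat1 in Z22 against total RNA at -0.048 in 1 fit over 11 libraries. None of these was called.

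Leaving out each treatment in turn called 0 to 1 members in Z22 against J2 and 0 to 1 in J2 against total RNA. The 1 was Neat1 without DMSO, both times. Values then ran from 0.22 to 1.21 for Neat1, -0.031 to 0.14 for Malat1, -0.26 to 0.21 for Pspc1, 0.056 to 0.73 for Nono and 0.14 to 0.66 for Sfpq in Z22 against J2. In J2 against total RNA they ran from -1.53 to 0.086 for Neat1, -0.71 to 0.34 for Malat1, -0.098 to 0.33 for Sfpq, -0.17 to 0.32 for Pspc1 and -0.28 to 0.055 for Matr3. In Z22 against total RNA they ran from -0.48 to 0.082 for Neat1, -0.53 to 0.51 for Malat1, 0.19 to 1.14 for Nono and 0.44 to 0.85 for Sfpq. Without DMSO, 610 genes were called higher and 240 lower in Z22 against J2, and 215 and 147 in J2 against total RNA. The tests pair the kinds of library by treatment, and without that treatment block 0 members were called in each of the 3. The cause of these dependences was not tested.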
